A study of Mus musculus with 6 samples.

Results

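The adrenomedullin system comprises 6 of the 18864 gene symbols measured: the peptide genes Adm and Adm2, the receptor gene Calcrl and the receptor activity-modifying protein genes Ramp1, Ramp2 and Ramp3. They were picked by symbol, and the choice was made with the BAPN and control values of these genes known, so their differences are given as descriptions. Calls of members by the fit across all genes are counted once, beside the share of all genes called, and support nothing. Satellite cells, from which skeletal muscle regenerates, were taken from the gastrocnemius of C56Bl/6 mice, freed of most fibroblasts by repeated plating, grown on matrigel and moved to differentiation medium before RNA sequencing. In 3 cultures this medium held 0.25% BAPN (beta-aminopropionitrile) for 24 h, which irreversibly blocks lysyl oxidases, the enzymes that cross-link collagens and elastin, and in the 3 control cultures it held none. Age is labelled as 8 weeks, while the protocol for growing the cells gives 6 weeks, and the series description calls the replicates biologically independent. The cultures are primary cells and can hold cells other than myogenic ones.

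Adrenomedullin and adrenomedullin 2 (also called intermedin) are secreted peptides of the calcitonin family, best known as dilators of blood vessels. Both act through the calcitonin receptor-like receptor, the product of Calcrl, a G protein-coupled receptor that reaches the cell surface only together with a RAMP. RAMP1 makes it a receptor for calcitonin gene-related peptide, RAMP2 and RAMP3 make it a receptor for adrenomedullin, and the receptor signals mainly through Gs and cyclic AMP. Adm is a textbook target of the hypoxia-inducible factors, and Adm2 of the stress factor ATF4.

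The replicate 3 libraries stood apart across the transcriptome: chi-square per degree of freedom between libraries of 1 group was 2.14 with BAPN and 2.3 in controls for replicates 1 and 2, and between 20.2 and 23.8 for any pair with replicate 3. Values of the members are therefore given for each library, and in bulk RNA fewer cells of a type and less RNA per cell cannot be told apart.

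With BAPN, both peptide genes and the receptor gene had higher counts in every library than in any control library. Ramp1 was slightly higher with BAPN, Ramp3 overlapped between the groups, and Ramp2 was barely detected. Of the 5 members with enough counts for the fit across all genes, 3 passed an edgeR adjusted p of 0.05 in the higher direction (Adm, Adm2 and Calcrl), where 15.6% of all 13716 genes tested did. In the lower direction 0 of these 5 passed by edgeR or DESeq2, and 0 at an unadjusted edgeR p under 0.05, where 20.8% of all genes passed the adjusted threshold. Ramp2, which had lower counts with BAPN, was not among the 5. In both directions together 36.4% of all genes did. Libraries did not overlap between groups, with BAPN higher, for 4 members, against 22.4% of all genes tested. They did not overlap, with BAPN lower, for 1 member (Ramp2, below the count minimum), against 28.5% of all genes tested, and 50.9% of all genes tested did not overlap in either direction. Nothing is read from these counts, since the same values were known when the genes were chosen.

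The 250 bases before the transcription start are shown for both peptide genes and for Ramp3, the member whose groups differed least, to show which letters of 6 short regulatory motifs they hold. The sequences are from RefSeq, build GRCm38.p6, each on the plus strand and read 5′ to 3′, and position -1 is the base before the RefSeq start. Adm is at chr7:110627407-110627656, Adm2 at chr15:89322470-89322719 and Ramp3 at chr11:6658283-6658532. Capitals mark GCGTG or its reverse complement CACGC, the core of a hypoxia response element.
Adm: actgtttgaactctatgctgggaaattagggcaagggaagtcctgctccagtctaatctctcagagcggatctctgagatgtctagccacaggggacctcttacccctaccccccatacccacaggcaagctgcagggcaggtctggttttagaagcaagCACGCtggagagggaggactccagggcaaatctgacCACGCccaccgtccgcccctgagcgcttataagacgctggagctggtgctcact
Adm2: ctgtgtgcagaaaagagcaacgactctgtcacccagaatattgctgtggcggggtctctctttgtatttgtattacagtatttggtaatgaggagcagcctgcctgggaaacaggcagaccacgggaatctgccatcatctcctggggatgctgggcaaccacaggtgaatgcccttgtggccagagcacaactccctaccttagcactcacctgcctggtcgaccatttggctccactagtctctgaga
Ramp3: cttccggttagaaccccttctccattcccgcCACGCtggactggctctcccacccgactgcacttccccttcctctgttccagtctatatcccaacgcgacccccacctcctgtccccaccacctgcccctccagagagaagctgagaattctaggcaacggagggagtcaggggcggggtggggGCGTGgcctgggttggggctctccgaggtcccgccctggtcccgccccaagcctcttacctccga
In the Adm window the core stands at -90 to -86 and at -54 to -50, both as CACGC. In the Ramp3 window it stands as CACGC at -219 to -215 and as GCGTG at -65 to -61, and the Adm2 and Ramp1 windows hold none. On either strand, 28.2% of the windows of 27025 genes hold GCGTG, a share to set beside 2 of the 5 members with a window. TGATGNAA, the composite C/EBP-ATF element, was found in the Calcrl window alone among the 5 members with a window, as TGATGTAA at -75 to -68, and 3.53% of all genes hold it. None of these 5 windows held ACGTG (16.6% of all genes), TGACGTCA, the cAMP response element (1.62%), TGACG, which TGACGTCA contains (17.9%), or CAGCTG, the E box bound by MyoD (12.8%). A match is only a run of letters, and nothing about binding was measured. By GENCODE, which places these starts differently, the last bases of the Ramp3 window lie in its first exon, and so does the larger part of the Calcrl window, TGATGTAA included.

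Adm encodes the preprohormone of adrenomedullin (chr7:110627661-110629820, plus strand, 4 exons, GRCm38). Its normalized counts were 619.1, 630.5 and 539.9 in BAPN replicates 1 to 3, against 61.1, 65.0 and 42.0 in control replicates 1 to 3. The groups lay far apart, and within each group replicate 3 was the lowest library. The means were 596.5 ± 49.4 with BAPN and 56.0 ± 12.3 in controls (± SD, 3 libraries each). The log2 fold change, BAPN over control, was 3.40 (SE 0.15), which ranked 19 from the top among 13716 genes. From summed counts of 1859 with BAPN and 162 in controls, the scaled ratio was 10.6, with a 95% interval of 9.03 to 12.5 that covers counting error only. BAPN replicates 1 to 3 exceeded the control libraries of the same number by 10.1-fold, 9.7-fold and 12.9-fold. Ranked against all genes in the table by mean normalized count, Adm stood at percentile 69.8 with BAPN and 41.8 in controls.

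Adm2 encodes the precursor of adrenomedullin 2 (chr15:89322720-89324731, plus strand, 3 exons). Normalized counts were 174.2, 159.3 and 295.3 with BAPN, against 5.1, 5.1 and 11.1 in controls, where the raw counts were 5, 5 and 10. The gene was thus scarce in control libraries and passed the count minimum through the BAPN libraries. Replicate 3 was the highest library in both groups. The means were 209.6 ± 74.6 with BAPN and 7.1 ± 3.46 in controls (± SD, 3 libraries each), and the log2 fold change of 4.88 (SE 0.39) ranked 3 from the top. The scaled ratio of summed counts, 642 with BAPN and 20 in controls, was 29.7 with a 95% counting interval of 19 to 48.9. The fold change of Adm2 was thus the larger of the peptide genes and the less precise.

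The 2 peptide genes differed in where replicate 3 stood. Relative to the mean of replicates 1 and 2, replicate 3 of Adm was lower by a log2 value of -0.21 with BAPN and -0.57 in controls. For Adm2 it was higher by 0.82 with BAPN and 0.99 in controls. Per kb of exon, Adm exceeded Adm2 by 2.85, 3.17 and 1.47 times in BAPN replicates 1 to 3, and by 9.61, 10.2 and 3.03 times in control replicates 1 to 3. The ratio of Adm to Adm2 overlapped between groups only through replicate 3 of the controls, the lowest control value.

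**Figure D1:**
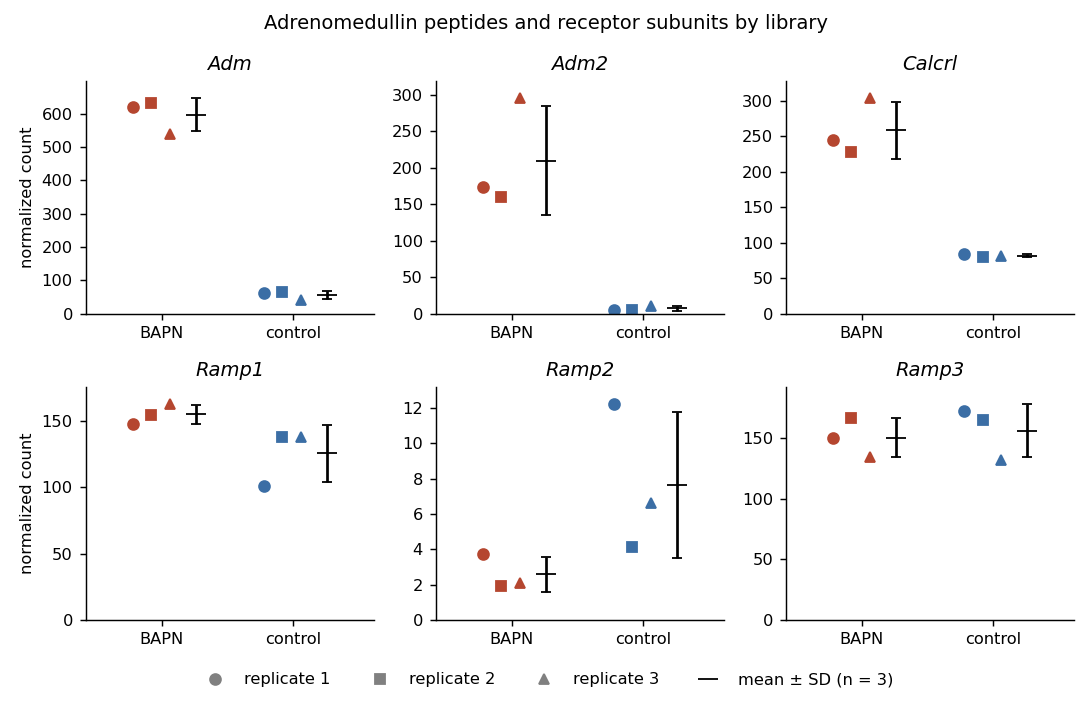
Normalized count (y axis, from 0) of each of the 6 genes in the 3 BAPN libraries (left, red) and the 3 control libraries (right, blue), with marker shape for the replicate number and the mean ± SD (n = 3) beside each group. Adm lies between 539.9 and 630.5 with BAPN and between 42.0 and 65.0 in controls, and Ramp3 overlaps between the groups.

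Calcrl encodes the receptor that carries both peptides' signals (chr2:84330626-84425411, minus strand, 16 exons). Its normalized counts were 244.5, 227.3 and 303.6 with BAPN, against 83.5, 79.3 and 81.8 in controls. The control libraries lay close together, and the lowest BAPN library was well above all of them. The means were 258.5 ± 40.0 with BAPN and 81.5 ± 2.11 in controls (± SD, 3 libraries each), and the log2 fold change was 1.66 (SE 0.14), rank 188 from the top. Summed counts of 798 with BAPN and 234 in controls gave a scaled ratio of 3.15 (95% counting interval 2.72 to 3.66). For libraries of the same number the excess with BAPN was 2.93-fold, 2.87-fold and 3.71-fold. Ligand and receptor transcripts were thus both higher with BAPN, the ligands by more.

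Ramp1 encodes the partner that turns the receptor towards calcitonin gene-related peptide (chr1:91179822-91225196, plus strand). Normalized counts were 148.0, 154.6 and 162.7 with BAPN, against 100.9, 138.2 and 138.2 in controls. The groups did not overlap, but control replicate 1 was lower than the other control libraries by more than those lay below the BAPN libraries. The means were 155.1 ± 7.36 with BAPN and 125.8 ± 21.5 in controls (± SD, 3 libraries each), with a log2 fold change of 0.30 (SE 0.15). It was 0.17 without control replicate 1.

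Ramp3 encodes an adrenomedullin receptor partner (chr11:6658521-6677475, plus strand) and differed least between groups. Normalized counts were 149.9, 166.7 and 134.7 with BAPN, against 172.2, 164.6 and 131.5 in controls, and replicate 3 was the lowest library in both groups. The means were 150.4 ± 16.0 with BAPN and 156.1 ± 21.6 in controls (± SD, 3 libraries each). The log2 fold change was -0.05 (SE 0.14), and the scaled ratio of 469 and 450 summed counts was 0.963, with a 95% counting interval of 0.844 to 1.1. Its sign depends on the scaling: as CPM (counts scaled to the library total), the log2 ratio of means was 0.10 for Ramp3 while the median of all genes was 0.12. An exon of Ramp3 overlaps an exon of Gm11978 on the opposite strand, so its reads are uncertain without a strand setting.

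Ramp2 encodes the partner that forms the main adrenomedullin receptor of endothelium (chr11:101246028-101259546, plus strand). Its raw counts were 4, 2 and 2 with BAPN, against 12, 4 and 6 in controls, too few for the count minimum. These are normalized counts of 3.7, 1.9 and 2.1 with BAPN, against 12.2, 4.1 and 6.6 in controls. The normalized counts did not overlap between groups, but BAPN replicate 1 and control replicate 2 held the same raw count of 4. Summed counts of 8 with BAPN and 22 in controls gave a scaled ratio of 0.336, with a 95% counting interval of 0.129 to 0.784, and edgeR without a count minimum gave a log2 fold change of -1.53 (SE 0.60). Some Ramp2 transcripts share exons with Vps25 on the same strand, which had normalized counts of 27.2, 32.6 and 13.5 with BAPN, against 25.5, 31.5 and 26.5 in controls. Some of these few reads may therefore not be assignable to Ramp2.

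The authors' deposited table lists log2 fold changes of 3.421 for Adm, 4.911 for Adm2, 1.656 for Calcrl, 0.3134 for Ramp1, -1.553 for Ramp2 and -0.05335 for Ramp3.

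**Figure D2:**
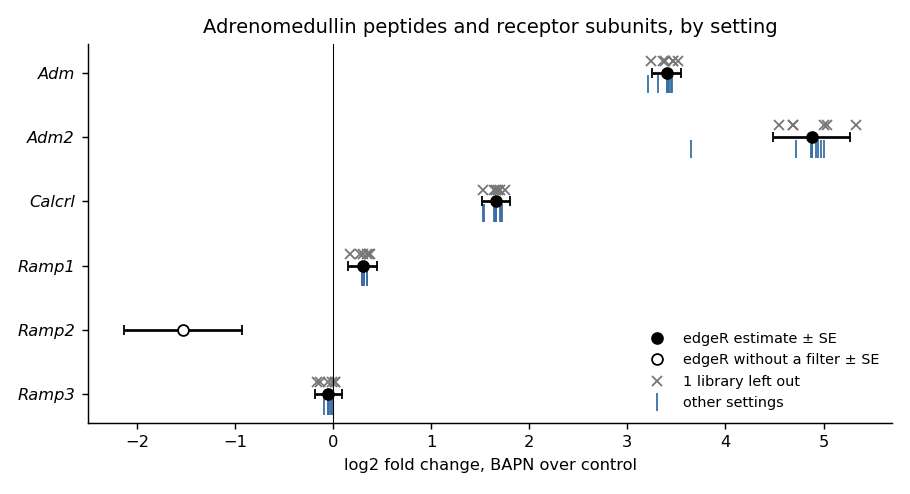
Log2 fold change, BAPN over control (x axis), of each gene: black circles with SE bars are edgeR estimates (open for Ramp2, fitted without a count minimum), crosses are values with 1 library left out and blue ticks are other settings. Adm, Adm2 and Calcrl lie right of 0 under every setting, Ramp1 lies between 0.17 and 0.38 with 1 library left out, and Ramp3 spans 0.

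Levels were compared between the 6 genes as normalized count per kb of exon, the union of the annotated exons, which takes reads to be spread along the transcript. In BAPN cultures Adm was the most abundant at 368.4 ± 30.5 per kb, followed by Adm2 at 161.5 ± 57.5, Ramp3 at 109.0 ± 11.6, Calcrl at 52.9 ± 8.20, Ramp1 at 51.3 ± 2.44 and Ramp2 at 0.78 ± 0.30 (SD, n = 3). Only Calcrl and Ramp1 overlapped between neighbours in that order. In control cultures the order began with Ramp3 at 113.1 ± 15.7 per kb, then Ramp1 at 41.6 ± 7.13, Adm at 34.6 ± 7.60, Calcrl at 16.7 ± 0.43, Adm2 at 5.47 ± 2.67 and Ramp2 at 2.31 ± 1.26. There, Ramp1 and Adm overlapped and the other neighbours did not. With the longest coding transcript as the length, Ramp1 stood above Calcrl in BAPN cultures at 66.7 and 52.9 per kb without overlap, Adm2 overlapped with Ramp3, and in controls Ramp2 at 6.48 overlapped with Adm2 at 5.47. Thus a RAMP gene led the order in control cultures and a peptide gene in BAPN cultures.

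Ramp3 held the largest share of the RAMP transcripts in all 6 libraries. Ramp3 held 67.5 ± 3.02% of the summed RAMP level per kb with BAPN and 71.8 ± 5.23% in controls (± SD, 3 libraries each). Ramp1 held 32.0 ± 3.03% with BAPN and 26.7 ± 5.72% in controls, and for both genes the ranges overlapped between groups. Ramp2 held 0.487 ± 0.199% with BAPN and 1.48 ± 0.768% in controls. The summed RAMP level was 161.1 ± 10.4 per kb with BAPN and 157.0 ± 12.3 per kb in controls. Calcrl, which the RAMPs carry to the surface, came to 0.316, 0.27 and 0.409 of that sum with BAPN, against 0.106, 0.098 and 0.117 in controls. The receptor to RAMP ratio therefore did not overlap between groups, while the RAMP sum did. Both peptides summed to 529.9 ± 27.0 per kb with BAPN and 40.1 ± 5.00 per kb in controls. Relative to Calcrl this was 10.1 ± 1.01 times with BAPN and 2.40 ± 0.327 times in controls.

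**Figure D3:**
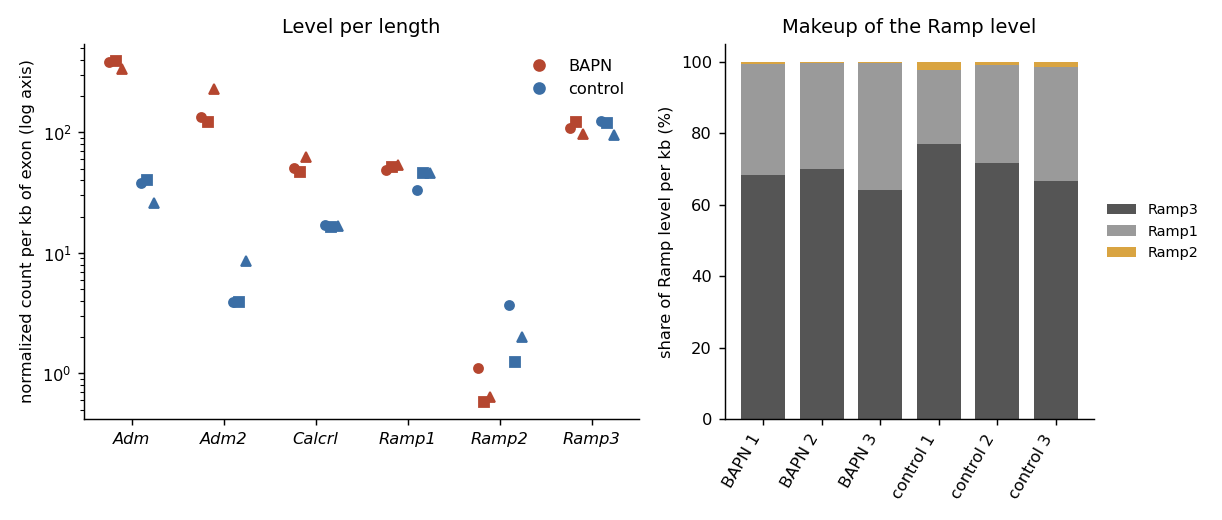
Left, normalized count per kb of exon (log axis) of the 6 genes in BAPN (red) and control (blue) libraries, with circles, squares and triangles for replicates 1, 2 and 3. Right, share of the summed RAMP level per kb (%) held by Ramp3, Ramp1 and Ramp2 in each library, where Ramp3 holds between 64.2% and 70.0% with BAPN and between 66.6% and 77.1% in controls.

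The genes whose profile over the 6 libraries was nearest to each member were taken by the root mean square difference of log2(normalized count + 1), centred per gene, among 10167 genes whose mean normalized count reached 100. Nearest to Adm were Prkcb, a protein kinase C gene, at 0.20, Arrb1, the gene of beta-arrestin 1, at 0.41 and Ero1l, which oxidises protein thiols in the endoplasmic reticulum, at 0.45, against a median of 1.74 over all genes compared. Prkcb had normalized counts of 365.3, 384.7 and 263.2 with BAPN, against 41.8, 47.8 and 22.1 in controls, with replicate 3 lowest in both groups as for Adm. Nearest to Adm2 were Trib3, a pseudokinase gene, at 0.43, Slc7a11, a cystine transporter gene, at 0.56 and Car9, a carbonic anhydrase gene, at 0.67 (median 2.43). Trib3 had 1632.6, 1465.0 and 3893.1 normalized counts with BAPN, against 108.0, 115.9 and 205.6 in controls, with replicate 3 highest in both groups as for Adm2. Nearest to Calcrl were Ampd3, an AMP deaminase gene, at 0.09, Vegfa, the gene of vascular endothelial growth factor A, at 0.11 and Hmox1, the gene of heme oxygenase 1, at 0.12 (median 0.86). Ramp1 lay nearest to Mapk1ip1, Txnrd3 and Dennd4b (0.06 to 0.07, median 0.29) and Ramp3 to Slc35d1, Fam216a and Plk4 (0.03 to 0.04, median 0.22). These distances rest on 6 libraries in 2 groups, so any gene with a like difference between groups comes out near.

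**Figure D4:**
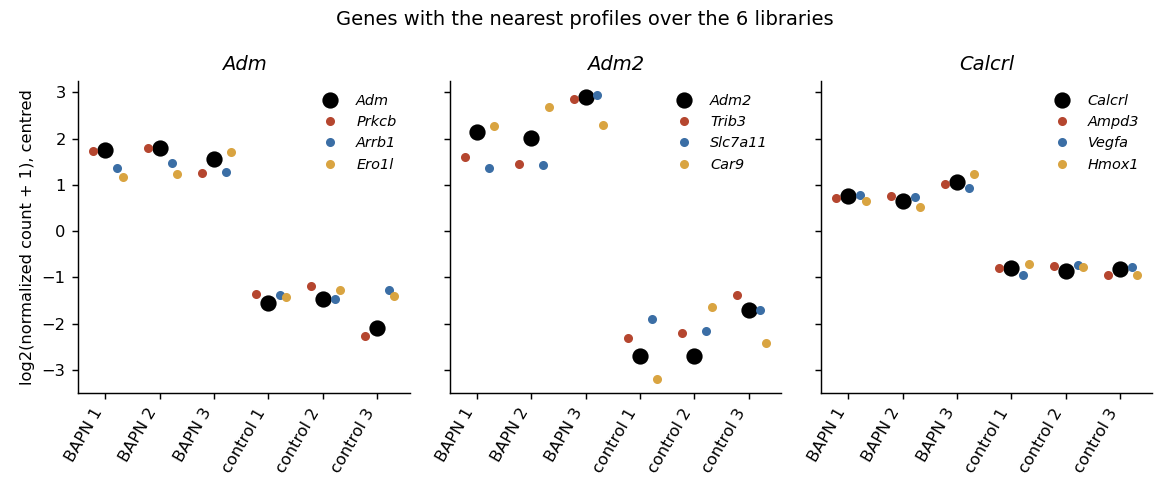
Log2(normalized count + 1), centred on each gene's mean over the 6 libraries (y axis), for Adm, Adm2 and Calcrl (large black points) and the 3 genes nearest to each (coloured points, set slightly aside). Trib3 and Slc7a11 share with Adm2 the highest value in BAPN replicate 3, and Prkcb shares with Adm the lowest value in control replicate 3.

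Targets of the factors known to drive the peptide genes were counted for comparison. Of 19 textbook targets of hypoxia-inducible factors, 19 were higher with BAPN and 0 lower (edgeR adjusted p under 0.05), with a median log2 fold change of 1.76 against -0.03 over all genes, below the 3.40 of Adm. Among all genes tested, 15.6% were higher and 20.8% lower. Slc2a1, a glucose transporter gene, rose by a log2 value of 2.29 (SE 0.07, edgeR adjusted p = 9.17e-06) and Mxi1 by 2.11 (SE 0.08, edgeR adjusted p = 2.14e-05). Of 19 ATF4 and CHOP targets, 16 were higher and 0 lower, with a median of 1.12, and with the replicate block 19 were higher. With 1 library left out 14 to 17 of these targets were higher, and under the other settings 12 to 19. Their summed normalized count was 67507.9, 66748.3 and 111587.8 in BAPN replicates 1 to 3 and 37878.6, 38381.2 and 47466.9 in control replicates 1 to 3, highest in replicate 3 of both groups, as for Adm2. The targets of hypoxia-inducible factors summed to 63386.7, 65427.6 and 68048.2 with BAPN and 20735.6, 22861.0 and 25384.6 in controls, also highest in replicate 3 of both groups, where Adm was lowest. Single targets in that sum differed. Bnip3, Pdk1, P4ha1, P4ha2, Pfkfb3, Bhlhe40 and Higd1a were highest in replicate 3 of both groups. Only Egln3 and Hilpda were lowest there in both groups, as Adm was, and the remaining listed targets did neither. Vldlr rose by 3.06 (SE 0.23, edgeR adjusted p = 0.000198) and Gdf15, a stress-induced secreted factor gene, by 1.85 (SE 0.11, edgeR adjusted p = 8.4e-05). Both lists were drawn up knowing that such genes were higher here, and are no independent evidence. They share Ddit4, and the ATF4 and CHOP list also holds the genes of these factors themselves, Atf4 and Ddit3.

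The rest of the calcitonin family was scarce. Calca, which encodes calcitonin and calcitonin gene-related peptide, had normalized counts of 18.7, 10.2 and 12.4 with BAPN, against 4.1, 1.0 and 1.1 in controls, below the count minimum although the groups did not overlap. Calcr, the calcitonin receptor gene, which marks quiescent satellite cells in mouse muscle, stayed at 1.1 or below in every library. Calcb and Iapp were not analysed here. Among 8 genes for processing, binding and clearance of the peptides, 6 were tested, 1 fell and 0 rose, where 20.8% of all genes fell and 15.6% rose. None rose at an unadjusted edgeR p under 0.05 either, and 1 did by DESeq2. Ece1, an endothelin-converting peptidase gene, had normalized counts of 1102.4, 1050.6 and 910.8 with BAPN, against 1401.9, 1410.6 and 1641.4 in controls (log2 fold change -0.54, edgeR adjusted p = 0.00408). Pam, whose enzyme adds the amide that both peptides need for activity, had 3873.0, 4063.6 and 2954.2 with BAPN, against 3285.8, 3190.2 and 2746.8 in controls. Its edgeR adjusted p was 0.172, and 0.0114 with the replicate number as a block. Ackr3, a scavenging receptor that binds adrenomedullin, had 2338.8, 2316.3 and 1446.6 with BAPN, against 1530.3, 1758.2 and 1179.4 in controls (edgeR adjusted p = 0.121, and 0.000722 with the block).

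The path from the peptides and their receptor to its target genes was counted next. Over 64 tested genes of processing, Gs and adenylyl cyclases, protein kinase A, phosphodiesterases, desensitisation and cAMP-induced transcription, 12 were higher and 16 lower with BAPN, with a median log2 fold change of -0.09 against -0.03 over all genes. These counts lie near the background, in which 15.6% of all genes were higher and 20.8% lower, and are no result about the pathway. Of 9 genes of Gs and the cyclases, 2 were higher and 2 lower. Adcy1, a neuronal adenylyl cyclase gene, had 79.6, 105.2 and 124.3 normalized counts with BAPN, against 54.0, 47.8 and 49.7 in controls (log2 fold change 1.02, edgeR adjusted p = 0.00567). Gnal, a Gs-type alpha subunit gene, was higher by 0.98 (edgeR adjusted p = 0.0156), a call lost without BAPN replicate 1 and without BAPN replicate 2. Adcy7 fell by 0.80 on the log2 scale, with 525.5, 533.7 and 412.4 with BAPN, against 917.0, 943.1 and 710.7 in controls (edgeR adjusted p = 0.00363). Gnas, the Gs alpha gene and the most abundant of the list, fell by 0.31 (edgeR adjusted p = 0.0172), a call lost without BAPN replicate 1.

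Of 13 genes of protein kinase A, the cAMP-activated exchange factors and kinase anchoring, 7 were lower and 1 higher, with a median log2 fold change of -0.54. Beside this and the following lists of the path, 20.8% of all genes tested were lower and 15.6% higher. Prkar1b, a regulatory subunit gene, had 163.0, 137.8 and 168.9 normalized counts with BAPN, against 408.6, 367.9 and 418.9 in controls (log2 fold change -1.35, edgeR adjusted p = 0.000235). Pkia, which encodes an inhibitor of the kinase, had 3738.1, 4113.9 and 4556.2 with BAPN, against 8166.0, 7357.1 and 8400.7 in controls (log2 fold change -0.95, edgeR adjusted p = 0.000369). Pkig, another inhibitor gene, fell by 0.59 and Prkar2a by 0.54 on the log2 scale. The genes that fell thus include both detected inhibitor genes of the list and the catalytic subunit gene Prkaca (log2 fold change -0.60, edgeR adjusted p = 0.0112), while Prkar1a, the most abundant of the list, missed the threshold (-0.14, edgeR adjusted p = 0.103). Among 13 cAMP phosphodiesterase genes, which break the messenger down, 4 were higher and 2 lower. Pde4b had 404.6, 408.9 and 407.2 with BAPN, against 186.4, 185.0 and 185.7 in controls, with libraries of each group nearly equal (log2 fold change 1.13, edgeR adjusted p = 0.000139). Pde8b was higher by 1.78 from low counts of 16.9, 23.3 and 21.8 with BAPN, against 4.1, 6.1 and 7.7 in controls (edgeR adjusted p = 0.00432). With a control mean of 5.97, Pde8b passed the count minimum through the BAPN libraries, as Adm2 did. Pde7a fell by 0.48 and Pde1a by 0.88 on the log2 scale.

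Of 9 desensitisation genes, 2 were higher and 2 lower, with 4 lower under the replicate block and 1 with TMM scaling. Arrb1, whose beta-arrestin uncouples and internalises receptors of this class, had 330.6, 354.9 and 312.9 normalized counts with BAPN, against 48.9, 45.7 and 52.0 in controls (log2 fold change 2.77, edgeR adjusted p = 2.36e-05). It had the largest absolute log2 fold change of the 64 genes and was also among the genes nearest to Adm. The other 3 calls, Arrb2 higher by 0.34 and the receptor kinase genes Grk5 and Grk6 at -0.79 and -0.39, were each lost when 1 of several libraries was left out. Rab11a, a recycling gene and the most abundant of the list per kb, came to -0.10 on the log2 scale (edgeR adjusted p = 0.261). Of 14 CREB factors and genes that cAMP is known to induce, 3 were higher and 2 lower, with a median of 0.15. Fos, an immediate early gene, had 1385.3, 1323.5 and 1606.1 with BAPN, against 728.5, 510.2 and 638.9 in controls (log2 fold change 1.20, edgeR adjusted p = 0.000693). Ppargc1a was higher by 0.72 (edgeR adjusted p = 0.00107), and Per1 by 0.28, a call lost when any 1 of 4 libraries was left out. In the other direction, Sik1, which encodes a kinase that restrains CREB coactivators, had 4918.3, 5065.7 and 4968.6 with BAPN, against 7055.5, 6997.3 and 7313.0 in controls (log2 fold change -0.51, edgeR adjusted p = 0.0006). Of the nuclear receptor genes of the list, Nr4a1 had a log2 fold change of -0.29 and a call lost when any 1 of 5 libraries was left out, and Nr4a2 and Nr4a3 had log2 fold changes of 0.45 and -0.19 with overlapping groups.

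**Figure D5:**
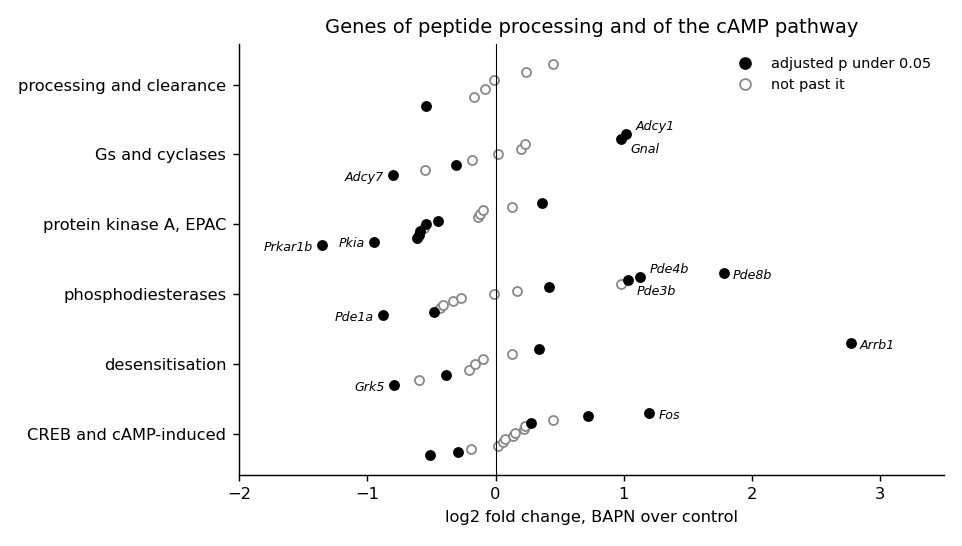
Log2 fold change, BAPN over control (x axis), of 64 tested genes in 6 lists (rows), filled where the edgeR adjusted p is under 0.05 and open otherwise, with names for filled points beyond 0.75 in size. Arrb1 at 2.77 stands apart from the other genes, and the protein kinase A row lies mostly left of 0.

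Of 13 tested genes of other vasoactive peptides and receptors, 3 were higher and 3 lower, where 15.6% of all genes were higher and 20.8% lower, with a median log2 fold change of -0.20. Vegfa, near Calcrl in profile, had 10196.2, 10003.8 and 11451.2 normalized counts with BAPN, against 3078.9, 3597.8 and 3507.3 in controls (log2 fold change 1.64, edgeR adjusted p = 6.14e-05). It is also on the list of targets of hypoxia-inducible factors and was counted there too. Apln, the gene of the vasodilator peptide apelin, had 838.3, 781.4 and 505.7 with BAPN, against 165.1, 170.7 and 115.0 in controls (log2 fold change 2.23, edgeR adjusted p = 0.000432), with replicate 3 lowest in both groups as for Adm. Vegfb was higher by 0.52 and Npr2, a natriuretic peptide receptor gene, fell by 0.43 on the log2 scale.

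The cell type label was checked against 8 myogenic markers, all of which were detected, with summed normalized counts of 119347.8 to 125164.2 with BAPN and 191987.8 to 210072.0 in controls, and 6 of the 8 were lower with BAPN. For this and all other marker lists, the shares of all genes to set beside the counts are 20.8% lower and 15.6% higher. Myog had 23686.5, 23399.7 and 27881.4 with BAPN, against 62876.9, 60155.6 and 64857.6 in controls. Endothelium is a known source of Adm, Calcrl and Ramp2. Of 12 blood endothelial markers 6 were tested and 0 were called by edgeR or DESeq2, with 2 higher at an unadjusted edgeR p under 0.05. With the replicate block 1 was higher, and with TMM scaling 1. With 1 library left out 0 to 1 were higher, and under the other settings 0 to 2, with 0 lower throughout. The list summed to 295.2 to 361.3 with BAPN and 255.6 to 306.0 in controls. Vwf held the largest share of that sum, with 185.5, 170.4 and 172.0 with BAPN, against 121.2, 137.2 and 153.6 in controls, without overlap (edgeR adjusted p = 0.0529, and 0.037 with the replicate block). Pecam1, Cdh5, Kdr and Egfl7 overlapped between the groups and Tek was lower in each BAPN library without passing the test, and these 5 lay at 15.5 to 43.8 with BAPN and 11.2 to 37.7 in controls. The other 6, Tie1, Emcn, Esam, Cldn5, Sox17 and Robo4, were under the count minimum. Among them the mean of Emcn was 9.1 (SD 5.27) over the 3 BAPN libraries and 4.13 (SD 2.65) over the 3 control libraries, and Cldn5, Sox17 and Robo4 were at 2.1 or below with BAPN and 6.6 or below in controls. Of 4 lymphatic markers, Pdpn was higher (0.73, edgeR adjusted p = 0.0221, lost without BAPN replicate 1 or 2) and Lyve1 was at 2.8 or below. Prox1 overlapped between groups, with 515.1, 530.9 and 446.6 with BAPN, against 430.0, 476.7 and 489.7 in controls (edgeR adjusted p = 0.45). Flt4 was scarce, with means of 9.67 with BAPN and 6.87 in controls.

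Of 8 macrophage markers, Cd14 and Cd68 were higher with BAPN and 0 lower, and the list summed to 253.8 to 411.6 with BAPN and 99.8 to 144.7 in controls. Adgre1 and Ptprc reached at most 2.1 with BAPN and 5.5 in controls. Lyz2 had 8.4, 2.8 and 11.4 with BAPN, against 9.2, 5.1 and 36.5 in controls, and Csf1r and C1qa reached at most 2.8 and 1.0 with BAPN, against 18.8 and 9.9 in control replicate 3. Of 10 smooth muscle and pericyte markers, 6 of 7 tested were lower and 0 higher, with sums of 25372.4 to 27783.8 with BAPN and 46190.4 to 58784.7 in controls. Acta2 made up most of these sums, with 21247.5 to 24162.4 with BAPN and 39597.4 to 51116.9 in controls. Myh11, Cnn1 and Kcnj8 were near 0 in both groups. Of 8 fibroblast markers, 5 were tested, Cd34 was higher and Col1a1 and Ly6a were lower, with sums of 1526.6 to 1951.2 with BAPN and 1949.0 to 2952.4 in controls. Of 5 Schwann cell markers, 2 were tested and Ngfr was higher, with sums of 171.3 to 195.6 with BAPN and 84.5 to 106.7 in controls, and Sox10 was near 0. The part of these cell types in the values of Adm, Adm2 and Calcrl was not tested.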

How the data were processed

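RNA was sequenced in 6 libraries of mouse satellite cells, 3 with BAPN and 3 control, grouped by the labels. Per the labels' protocols, an in-house library method was followed by sequencing of 60 nt single reads on 1 lane. The RNA integrity number was above 8.1 for most samples and under 7.5 for 2 that are not identified. The series description gives 4% horse serum in the differentiation medium and the growth protocol 10% fetal calf serum. Per the submitters' processing notes, the tools were cutadapt, STAR, HTSeq and DESeq2 on GRCm38 (mm10). Their versions, the annotation and the strand setting were not given in the sources used here. The authors deposited raw counts of 18864 symbols, per the file headers, of which 0 name no gene, and normalized counts, a signal equal to the count divided by 1 size factor per library. A further table that the authors deposited holds log2 fold changes, p-values and signed fold scores. Total counts per library were 17125602 to 18617656 with BAPN and 18335559 to 18682099 in controls.

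BAPN was tested against control with edgeR 4.0.16 (R 4.3.3; glmQLFit, glmQLFTest; no block) on 13716 genes whose mean normalized count reached 10, using the authors' size factors, with Benjamini-Hochberg adjustment over all of them. Calls used an adjusted p under 0.05. The procedure was also run on simulated counts, which had far fewer changed genes and no shift of replicate 3. That run therefore does not show the error rate of the calls in these data. Alternatives used TMM, DESeq2 1.42.0, limma 3.58.1 (trend, pseudocounts 1 and 10), other count minimums, libraries left out or summed, and other lengths or scaling for levels. Tested genes in the lists count as higher, rising, lower or falling only past the threshold. Same-numbered libraries deviated together (correlations across genes of 0.184, 0.191 and 0.366 for replicates 1, 2 and 3). The titles' numbers were therefore used as a block in an alternative fit, while the main calls ignore any pairing. BAPN replicate 1 correlated more with control replicate 2 (0.229), so the pairing of replicates 1 and 2 is uncertain. Replicates 1 and 2 of each group lay close but beyond sampling noise and were kept separate. The p-values reflect only the spread among these 6 libraries.

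The members and 17 gene lists were chosen with earlier results of these data known. Named genes were the members, the 3 genes nearest to each, up to 4 called genes of smallest p per list, the most abundant gene of each pathway list, and the calcitonin family. Ackr3, Prkaca, the Nr4a genes and the markers of other cell types that were not called were named after their values were seen. So were Bnip3, Pdk1, P4ha1, P4ha2, Pfkfb3, Bhlhe40, Higd1a, Hilpda, Atf4 and Ddit3. Positions are from GENCODE M21 (GRCm38) and may differ from the annotation used for counting. Overlaps with other genes were looked up for the 6 members only. Promoter sequences are from RefSeq and matched 5 of the 6 members.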

Additional observations from a re-analysis of the deposited data

How the results depend on the processing

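The members were chosen with these values known, so the ranges below are descriptions and no sign of stability. Leaving out 1 library gave log2 fold changes of 3.24 to 3.52 for Adm, 4.55 to 5.33 for Adm2, 1.53 to 1.75 for Calcrl, 0.17 to 0.38 for Ramp1 and -0.16 to 0.02 for Ramp3. With the replicate block they were 3.41, 4.87, 1.65, 0.31 and -0.05. Adm2 came to 3.65 with a pseudocount of 10 in limma, which shrinks genes of low count. Against 2140 higher and 2850 lower genes in all, there were 2790 higher and 3709 lower with the replicate block, and 2450 higher and 2381 lower with TMM. Replicates 1 and 2 summed gave 716 higher and 809 lower, from 2 libraries a group. With both replicate 3 libraries left out 3223 were higher and 4265 lower, also from 2 libraries a group. In that fit alone Ramp1 passed the threshold too, in the higher direction. Leaving out 1 library gave 1461 to 2329 higher and 1862 to 3113 lower, with the lowest higher count both without BAPN replicate 2 and without control replicate 1, and the lowest lower count without BAPN replicate 2. Of the 64 pathway genes, 6 were higher and 9 lower with replicates 1 and 2 summed, and 8 to 13 higher and 13 to 17 lower with 1 library left out. Scaling to the library total (CPM) moved the median log2 ratio of all genes by 0.15. Ramp2 and the control counts of Adm2 are limited by depth. No outlier test was made with 3 libraries a group.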
